A study of Arabidopsis thaliana with 20 samples.

Results

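The inflorescence meristem (IM) and the vegetative shoot apical meristem (SAM) of the Arabidopsis mutant *plt3 plt7* were compared gene by gene. The comparison rests on the 10 *plt3 plt7* libraries among the 20 RNA-seq libraries of the study, 5 from SAMs and 5 from IMs, selected by the genotype and tissue that the sample labels give. The study asked how PLETHORA (PLT) transcription factors shape phyllotaxis, and the other 10 libraries are the same tissues of the wild type Col-0. All 10 mutant libraries carry CRISPR alleles of both *PLT3* and *PLT7* in the Col-0 background, so every change described here was measured in plants mutated in both genes. SAMs came from seedlings at 7 d post germination (dpg), grown on a mesh over half-strength MS agar under fluorescent light, with cotyledons, the oldest leaf pair and most of the hypocotyl removed. IMs came from plants at 31 to 33 dpg, grown on soil under LED light, with flowers removed until about 10 primordia were left. About 50 hand-dissected meristems were pooled per library. Tissue, age, substrate, light and harvest changed together, so their effects cannot be told apart. Nothing in the labels ties the libraries to separate sowings other than the harvest groups, and p-values measure the spread between these libraries.

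During the vegetative phase the SAM makes leaves, and after the floral transition it becomes an IM that makes flowers. A class of small RNAs, miR156, keeps *SQUAMOSA PROMOTER BINDING PROTEIN-LIKE* (*SPL*) transcripts low in young shoots, and a later-rising class, miR172, acts on *APETALA2* (*AP2*)-like repressors of flowering. Release of SPL factors and loss of repressors such as FLOWERING LOCUS C (FLC) and Short Vegetative Phase (SVP) let LEAFY (LFY) and APETALA1 (AP1) specify floral meristems, in which MADS-box factors then specify the floral organs.

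Counts are kallisto estimated counts summed to the gene locus. Normalised counts are these counts divided by DESeq2 size factors of the 10 libraries, and replicate values are listed in the order of replicates 1 to 5. A locus was called where the DESeq2 Wald test gave an adjusted p-value (Benjamini-Hochberg) under 0.1 and the tissues differed by more than 25%. Log2 fold changes are IM minus SAM with their standard error (SE). Total counts were 28.5 to 43.1 megacounts per SAM library and 24.8 to 114.9 megacounts per IM library, and the deepest, IM replicate 3, also had the shortest mean fragments (286.6 nt). Totals and fragment lengths did not separate the tissues (exact permutation tests, two-sided, adjusted p = 0.738 for both over 4 properties, n = 5 per tissue). The plastid share of counts was 1.66% ± 0.236 in SAM and 0.843% ± 0.142 in IM (SD, n = 5, exact permutation adjusted p = 0.0159). The mitochondrial share, 0.00536% ± 0.00127 in SAM and 0.0109% ± 0.00186 in IM, moved the other way (SD, n = 5, exact permutation adjusted p = 0.0159). TPM, which also corrects for transcript length, is scaled apart from normalised counts and can rise where these do not. The gene *TGG1*, for example, averaged 24793.53 and 23121.48 normalised counts in SAM and IM, but 364.28 and 438.98 TPM. Summed TPM and calls are therefore not on 1 scale. Markers of sampled cell types also moved with tissue. The vascular markers summed to 98.91 to 142.5 TPM in SAM and 29.88 to 39.75 TPM in IM, and all 9 of 9 were lower in IM. Of the epidermal markers, which summed to 2803 to 3634 TPM in SAM and 5138 to 5551 TPM in IM, 1 of 5 rose. The root markers *RHD6*, *COBL9*, *EXPA7* and *LRX1* were at or near 0 in both tissues. Of the other 2 root markers, *PIN2*, for a root auxin carrier, was not called, and *WOX5*, for a root organizer factor, fell by 1.74. All 6 summed to 4.657 to 6.687 TPM in SAM and 3.087 to 4.395 TPM in IM. In bulk tissue, fewer cells of a type and less RNA per cell cannot be told apart, and the part of these cell types in the results below was not tested.

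Of 19689 tested loci, 5206 were higher in the IM (26.4%) and 6167 were lower (31.3%). With a 2-fold minimum, 1849 were higher (9.39%) and 3594 were lower (18.3%). The 5 IM libraries all lay above the 5 SAM libraries for 4398 of the higher loci, and all lay below them for 5443 of the lower loci. Because these loci were called on the same libraries, the 2 counts describe the calls and are not separate support for them. The median log2 fold change of all tested loci was 0.02. The libraries were strand-specific, but no strand option of kallisto is stated, and loci that overlap another on the opposite strand are uncertain: these were 1291 of the higher and 1705 of the lower calls.

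**Figure D1:**
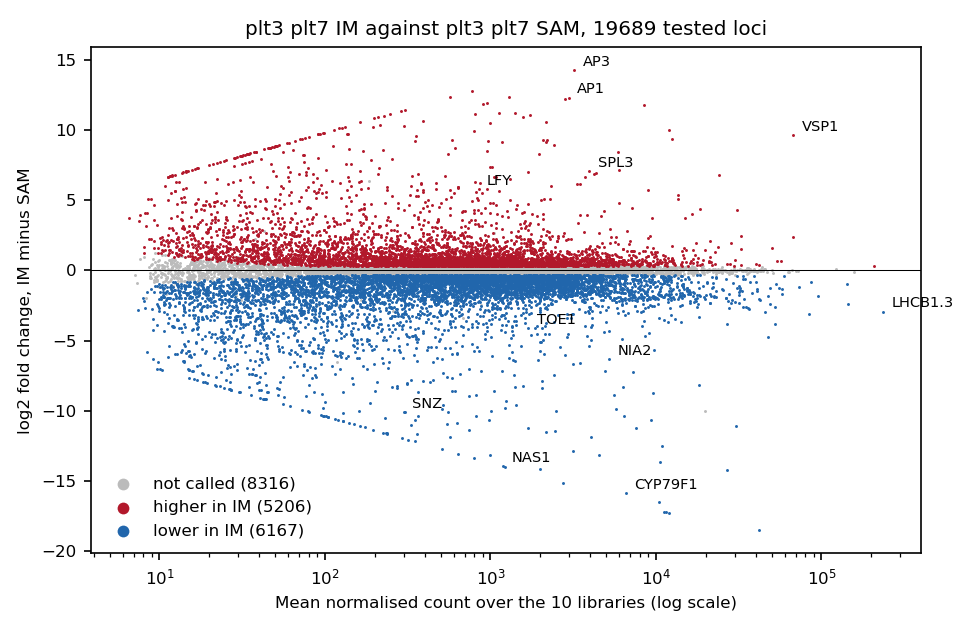
Log2 fold change (IM minus SAM, vertical axis) against the mean normalised count over the 10 *plt3 plt7* libraries (horizontal log axis), 1 point per tested locus. Red points are the 5206 higher calls and blue points the 6167 lower calls. Named examples such as *AP3* and *CYP79F1* lie far from 0 because the other tissue had almost no counts.

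The targeted genes were examined first. *PLT3* (AT5G10510, chromosome 5, 3315401 to 3320323, TAIR10.1) had 351.7, 272.0, 299.9, 298.0 and 335.8 normalised counts in SAM and 809.5, 692.6, 791.4, 793.5 and 864.0 in IM. *PLT7* (AT5G65510, chromosome 5, 26185593 to 26189571) had 204.8, 206.5, 177.6, 217.4 and 221.7 in SAM and 500.4, 546.5, 630.6, 546.8 and 631.7 in IM. For both genes every IM library lay above every SAM library, with log2 fold changes of 1.34 (SE 0.10, DESeq2 adjusted p = 4.58e-44) and 1.48 (SE 0.11). Transcripts of both mutated genes were still counted in every mutant library. Normalised over all 20 libraries, *PLT3* averaged 291.75 ± 29.8 in mutant SAM against 576.72 ± 110.68 in Col-0 SAM, and 740.22 ± 57.36 in mutant IM against 1316.35 ± 127.91 in Col-0 IM (SD, n = 5). *PLT7* averaged 192.6 ± 16.08 against 268.64 ± 89.72 in SAM and 535.1 ± 54.43 against 616.1 ± 77.28 in IM. *PLT3* overlaps AT5G10520 on the opposite strand. The related *AINTEGUMENTA* (*ANT*), which promotes organ growth, and *PLT5* were also higher in IM, by log2 1.07 (SE 0.07) and 0.50 (SE 0.10). The 4 family members that passed the filter on low counts thus all rose, against 26.4% of all tested loci. The other 4 of the 8 listed did not pass it.

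The small RNAs miR156 and miR172 act on the families described next. The mature sequences below, from the RefSeq annotation of TAIR10.1, are shown because those genes carry sites for them. Capitals mark the seed, bases 2 to 8 from the 5′ end.
miR156a-5p (AT2G25095, chr2:10676534-10676553, minus strand): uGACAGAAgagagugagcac
miR172a (AT2G28056, chr2:11942918-11942938, minus strand): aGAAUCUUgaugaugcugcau

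The best match to each small RNA was located in the spliced RefSeq transcripts, and capitals mark the bases opposite the seed. The *SPL2*, *SPL6*, *SPL9*, *SPL10*, *SPL11*, *SPL13A*, *SPL13B* and *SPL15* coding sequences hold 1 identical site, whereas those of *SPL3* and *SPL5* lie in the 3′ UTR. That of *SPL4* lies neither wholly within a coding sequence nor past the outermost coding end of its transcripts, and was not placed further. The best match in *SPL8*, which has no such site, is given for contrast.
*SPL9* (chr2:17589066-17589085, plus strand, 1 mismatch): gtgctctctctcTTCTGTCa
*SPL3* (chr2:14305878-14305897, plus strand, 2 mismatches): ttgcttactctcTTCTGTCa
*SPL4* (chr1:19807090-19807109, plus strand, 2 mismatches): ctgctctctctcTTCTGTCa
*SPL5* (chr3:5140598-5140617, minus strand, 3 mismatches): ccgctctctctcTTCTGTCa
*SPL8* (chr1:365814-365833, plus strand, 6 mismatches): cacctcaccctcTACGGTCa

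Transcripts of the *SPL* family, whose factors promote phase change and flowering, were higher in the IM for 14 of 16 members and lower for 1. Over all tested loci 26.4% were higher and 31.3% lower. The family median was 2.08 on the log2 scale, against 0.02 over all tested loci. Their summed TPM was 118.3 to 159.7 in SAM and 1173 to 1373 in IM. The small *SPL3* to *SPL5* genes changed most. *SPL3* had 67.4, 61.6, 54.1, 49.2 and 64.3 normalised counts in SAM and 8053.5, 8069.7, 9991.8, 6833.5 and 6309.1 in IM (log2 fold change 7.04, SE 0.15). *SPL4* had 83.5, 82.1, 72.9, 67.0 and 61.5 in SAM and 7468.1, 7601.1, 7593.9, 7271.0 and 6731.5 in IM (6.66, SE 0.10). *SPL5* had 22.9, 7.7, 7.1, 8.2 and 13.6 in SAM and 2106.6, 1763.7, 2172.9, 2037.1 and 1752.0 in IM (7.37, SE 0.23). None of these 3 genes had overlapping groups, and no IM library stood apart from the other 4. Each of the 3 overlaps a locus on the opposite strand.

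*SPL9*, which sets the rate of leaf initiation and activates miR172, had 745.1, 738.9, 637.5, 844.9 and 916.0 normalised counts in SAM and 5103.4, 4117.5, 5414.0, 4622.0 and 4853.4 in IM (2.63, SE 0.10, DESeq2 adjusted p = 2.21e-140). The other targets with the same site rose by 2.77 (*SPL10*), 2.47 (*SPL11*), 1.68 (*SPL2*) and 1.2 (*SPL6*) on the log2 scale. *SPL15* rose by 3.92, but 96.49% of its 31-base words occur in another locus and it overlaps AT3G57910. *SPL13B* rose by 0.57 and *SPL13A* had 0.50 without a call, and these copies share so much sequence that counts may be divided between them. Some members without a miR156 site also rose, and the part of miR156 in these changes was not tested. *SPL8*, known for its part in anther development, had 173.8, 142.4, 109.4, 125.8 and 126.7 in SAM and 4552.0, 4200.8, 4435.8, 4680.7 and 4429.0 in IM (5.05, SE 0.09). The large *SPL1*, *SPL7* and *SPL14* genes, whose best match had 7 or 8 mismatches, rose by 0.72, 0.51 and 0.96, and *SPL12* fell by 0.48.

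Among the 6 *AP2*-like genes with a miR172 site, 4 were lower (66.7%) and 2 higher (33.3%) in the IM, against 31.3% and 26.4% over all loci. Each of the 6 sites lies in the coding sequence and pairs with the seed except at 1 base, a G:U pair. Capitals again mark the bases opposite the seed.
*TOE1* (chr2:12226233-12226253, minus strand, 3 mismatches): cagcagcatcatcAGGATTCt
*TOE2* (chr5:24210889-24210909, plus strand, 1 mismatch): atgcagcatcatcAGGATTCt
*SMZ* (chr3:20373774-20373794, minus strand, 3 mismatches): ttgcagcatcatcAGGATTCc
*SNZ* (chr2:16389066-16389086, minus strand, 4 mismatches): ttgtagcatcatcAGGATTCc
*AP2* (chr4:17403019-17403039, plus strand, 2 mismatches): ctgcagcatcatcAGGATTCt
*TOE3* (chr5:26802175-26802195, minus strand, 3 mismatches): tggcagcatcatcAGGATTCt

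*TARGET OF EAT 1* (*TOE1*), a repressor of flowering, had 3283.6, 3184.1, 2982.7, 3352.4 and 3242.0 normalised counts in SAM and 198.7, 165.3, 200.8, 177.1 and 170.2 in IM (−4.12, SE 0.08). *TOE2* had 1654.6, 1513.8, 1434.9, 2164.3 and 2116.1 in SAM and 628.9, 590.2, 584.2, 598.3 and 671.8 in IM (−1.53, SE 0.12). The repressors *SCHLAFMUTZE* (*SMZ*) and *SCHNARCHZAPFEN* (*SNZ*) were at or near 0 in the IM. *SMZ* had 369.2, 368.2, 377.5, 587.9 and 494.2 in SAM and 3.2, 6.8, 7.6, 2.7 and 7.0 in IM (−6.22, SE 0.29), and it overlaps a locus on the opposite strand. *SNZ* had 564.6, 474.7, 550.4, 721.9 and 671.6 in SAM and 0, 0, 0.9, 0 and 1.0 in IM. The 2 genes that rose have the same central site. *AP2*, which also specifies sepals and petals, had 1247.7, 1150.7, 1137.3, 1272.9 and 1547.7 in SAM and 2372.2, 2091.5, 2394.1, 2162.8 and 2319.6 in IM (0.83, SE 0.09). *TOE3* rose by 2.60 (SE 0.18) and overlaps another locus. *TOE1*, *SMZ* and *TOE3* each have 3 mismatches, and the part of miR172 in the 6 changes was not tested.

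**Figure D2:**
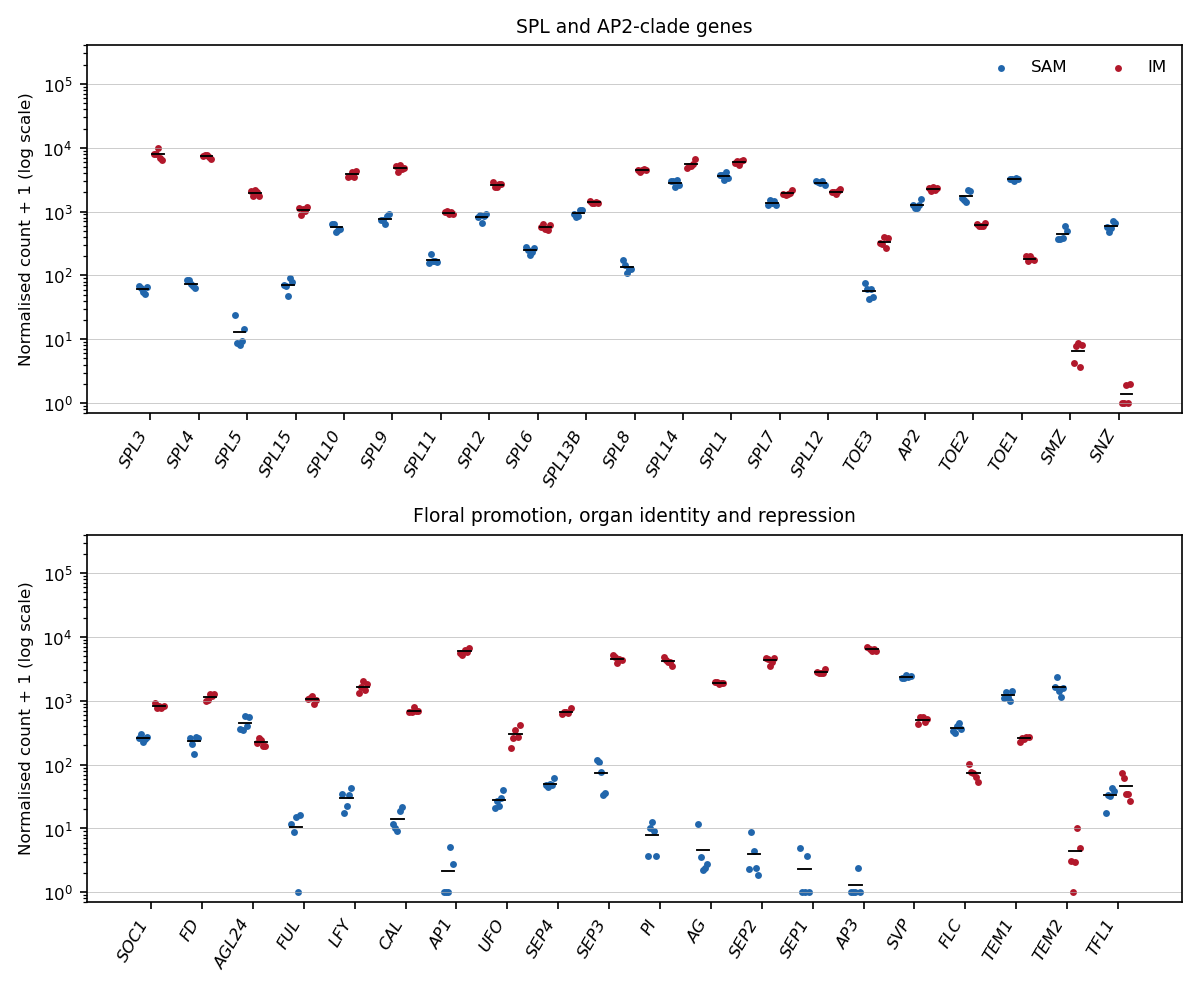
Normalised count plus 1 (log axis) of *SPL* and *AP2*-clade genes (top) and of floral promotion, organ identity and repression genes (bottom). Each point is 1 library, blue for the 5 *plt3 plt7* SAM and red for the 5 *plt3 plt7* IM libraries, and black lines are group means. *SPL3* moved from a mean of 59.31 to 7851.52, whereas the points of *TFL1* overlap between tissues.

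Floral promotion genes were higher in the IM for 18 of the 21 members that passed the filter (24 listed) and lower for 2. The shares over all loci were 26.4% and 31.3%. The median of the list was 4.71 on the log2 scale. The floral meristem identity gene *LFY* (chromosome 5, 24844248 to 24846989) had 33.7, 16.7, 21.2, 32.8 and 42.5 normalised counts in SAM and 1313.0, 1668.0, 2044.0, 1489.4 and 1827.0 in IM (5.81, SE 0.19, DESeq2 adjusted p = 6.74e-194). *AP1* (chromosome 1, 25982294 to 25986349), which acts with LFY, had 0, 0, 0, 4.1 and 1.8 in SAM and 5628.2, 5326.5, 6269.9, 5822.2 and 6694.5 in IM (12.29, SE 0.65, DESeq2 adjusted p = 3.26e-78). *LFY* transcripts were counted in every SAM library, and *AP1* in only 2 of them. The *AP1* relatives *CAULIFLOWER* and *FRUITFULL* rose by 5.69 and 6.70.

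*SUPPRESSOR OF OVEREXPRESSION OF CONSTANS 1* (*SOC1*), an integrator of flowering signals, had 260.0, 296.3, 225.8, 248.8 and 266.1 in SAM and 912.5, 759.6, 825.3, 778.2 and 836.9 in IM (1.67, SE 0.09). It was already counted in every SAM library, and its log2 fold change was smaller than those of *LFY* and *AP1*. *FD*, whose product binds the flowering signal FT, rose by 2.32 and the *SOC1* relative *AGL42* by 6.20, whereas *FT* itself, a gene of leaf veins, was at or near 0 in all 10 libraries. *AGL24* and *BOP1* were the members that fell, by 1.02 and 1.52. *UNUSUAL FLORAL ORGANS* (*UFO*), a cofactor of LFY, had 20.2, 25.7, 21.2, 28.7 and 38.9 in SAM and 183.8, 265.0, 344.1, 270.2 and 424.5 in IM (3.45).

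Floral organ identity genes were higher for 13 of 14 tested members (15 listed) and lower for 1, against 26.4% and 31.3% over all loci. Their median was 8.97, or 8.10 with genes that had no SAM counts set to their lower bound. Their summed TPM was 6.133 to 7.844 in SAM and 945.3 to 1039 in IM. *APETALA3* (*AP3*), which specifies petals and stamens, had 1 estimated count in all SAM libraries together and 6966.7, 6606.6, 6093.0, 6469.3 and 6064.8 normalised counts in the IM libraries, a ratio of 2.66e+04 (95% counting interval 4.77e+03 to 1.05e+06, which covers counting error only, as do those below). Its partner *PISTILLATA* (*PI*) had 2.7, 9.0, 11.8, 8.2 and 2.7 in SAM and 4809.1, 4344.3, 4119.1, 4019.1 and 3550.0 in IM (9.29). *AGAMOUS* (*AG*), which specifies stamens and carpels, had 10.8, 2.6, 1.2, 1.4 and 1.8 in SAM and 2003.5, 2000, 1859.8, 1927.8 and 1891.1 in IM (9.18). The *SEPALLATA* cofactors *SEP1* to *SEP4* rose by 11.21, 10.56, 5.97 and 3.77, and the carpel gene *CRABS CLAW* by 9.10. *SUPERMAN*, which bounds the stamen whorl, had no SAM count and was at least 136-fold higher in IM. *AGL13*, a MADS-box gene of ovules, was the member that fell, by 1.04. *SEP1* and *CRABS CLAW* overlap a locus on the opposite strand.

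Floral repressors were divided, with 5 of 16 tested members (18 listed) higher (31.2%) and 8 lower (50%) in the IM, against 26.4% and 31.3% over all loci. *FLC* (chromosome 5, 3173382 to 3179448) had 334.2, 314.3, 398.7, 448.4 and 359.3 normalised counts in SAM and 103.0, 75.1, 73.5, 64.2 and 53.1 in IM (−2.33, SE 0.17, DESeq2 adjusted p = 6.49e-43), with the opposite-strand locus AT5G01675 overlapping it. *SVP* had 2297.3, 2318.1, 2524.0, 2342.0 and 2478.1 in SAM and 426.0, 551.9, 559.1, 467.3 and 511.6 in IM (−2.25, SE 0.08). The *TEMPRANILLO* genes, which repress *FT* and gibberellin synthesis, diverged in extent. *TEM1* fell by 2.24, and *TEM2* had 1629.0, 2387.4, 1425.5, 1137.5 and 1562.2 in SAM and 2.1, 0, 2.0, 9.0 and 4.0 in IM (−8.90, SE 0.45). The *FLC* relatives *MAF1*, *MAF4* and *MAF5* moved the other way and rose by 0.53, 0.81 and 1.60. *TERMINAL FLOWER 1* (*TFL1*), which keeps the IM indeterminate, had 16.2, 32.1, 31.8, 42.4 and 38.0 in SAM and 72.2, 61.5, 33.6, 34.3 and 26.0 in IM. Its groups overlapped and it was not called (0.48, SE 0.35, DESeq2 adjusted p = 0.211).

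Genes that maintain the meristem were higher in the IM for 16 of 21 tested members (76.2%) and lower for 3 (14.3%). Over all loci these shares were 26.4% and 31.3%. *SHOOT MERISTEMLESS* (*STM*), which keeps meristem cells undifferentiated, had 602.3, 590.1, 757.4, 922.9 and 850.8 normalised counts in SAM and 1928.1, 2202.2, 2566.3, 2022.7 and 2429.7 in IM (1.58). *WUSCHEL* (*WUS*), which specifies stem cells, had 5.4, 0, 11.8, 0 and 6.3 in SAM and 183.8, 222.7, 156.7, 160.9 and 141.2 in IM (5.13). *CLAVATA3* (*CLV3*), the stem cell peptide that limits *WUS*, was low in both tissues and lower in IM, with 8.1, 15.4, 28.2, 16.4 and 22.6 in SAM and 0, 0, 7.6, 2.7 and 5.0 in IM (−2.38, SE 0.69, DESeq2 adjusted p = 1.08e-03). As a check of the tissue labels, *STM* was present in all 10 libraries, whereas these stem cell markers were near 0 in SAM and *CLV3* also in IM. The receptor gene *CLAVATA1* fell by 0.85. The boundary genes *CUC1*, *CUC2* and *CUC3*, which separate organs from the meristem, rose by 2.68, 2.21 and 1.18.

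Auxin transport genes changed in opposite directions, in a list with 15 of 23 higher (65.2%) and 6 lower (26.1%). The shares over all loci were 26.4% and 31.3%. *PIN3*, for an auxin carrier of the hypocotyl and vascular tissue, had 3033.0, 3018.6, 2581.6, 3299.0 and 3049.3 normalised counts in SAM and 226.3, 237.7, 201.4, 210.6 and 226.3 in IM (−3.78, SE 0.09). The carrier genes *PIN4*, *PIN7* and *AUX1* fell by 3.86, 1.3 and 1.28, and *LAX2* rose by 1.29. Other members of the list that rose were the kinase gene *PINOID* by 2.24, the auxin response factor gene *MONOPTEROS* by 2.08 (it overlaps another locus) and the auxin synthesis gene *TAA1* by 1.78. *DORNRÖSCHEN* (*DRN*), a gene of organ founder cells, fell by 2.46. Cytokinin genes had 6 of 22 higher (27.3%) and 9 lower (40.9%), against 26.4% and 31.3% over all loci. The largest changes among them were in *AHP4*, a phosphotransfer gene that overlaps another locus and fell by 7.67, the purine permease gene *PUP18*, which fell by 3.34, and *CKX3*, which encodes a cytokinin oxidase and rose by 2.93. *AHP6*, an inhibitor of cytokinin signalling known from phyllotaxis, rose by 1.81. Gibberellin genes had 6 of 18 tested members (20 listed) higher (33.3%) and 8 lower (44.4%), against 26.4% and 31.3% over all loci, with a median log2 fold change of −0.01. *GA2OX6*, for gibberellin inactivation, and *GA3OX1*, for synthesis, fell by 6.65 and 2.37, and the signalling repressor gene *RGL2* rose by 3.14.

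Photosynthesis and stomatal lineage genes were lower in the IM. All 36 photosynthesis genes fell, by 1.75 to 4.71 on the log2 scale, and their summed TPM was 52600 to 68500 in SAM and 11910 to 13900 in IM. *LHCB1.1*, for a light-harvesting protein, had 125952.3, 99536.4, 95644.2, 62825.3 and 73247.5 normalised counts in SAM and 4213.2, 3379.8, 3298.5, 3259.1 and 3281.7 in IM (−4.71, SE 0.15, DESeq2 adjusted p = 1.25e-206). The SAM values spread more than the IM values, with replicates 4 and 5 lowest, and 31.15% of its 31-base words occur in other loci. *RCA*, for rubisco activase, fell by 2.76. Stomatal lineage genes were lower for 7 of 9 tested members (77.8%) and higher for none, against 31.3% and 26.4% over all loci. The early regulators *SPEECHLESS* and *EPF2* fell by 1.12 and 1.81, whereas the later *MUTE* and *FAMA* had −0.28 and −0.03 and were not called. Trichome genes were lower for 6 of 9 (66.7%) and higher for 1 (11.1%). Their summed TPM was 74.31 to 110 in SAM and 86.17 to 90.65 in IM. The initiation gene *GLABRA1* (*GL1*) had 235.8, 313.0, 268.2, 313.1 and 283.3 in SAM and 37.2, 13.7, 23.3, 19.0 and 12 in IM (−3.72, SE 0.22), and its relative *MYB23* fell by 8.13. *TRIPTYCHON*, an inhibitor of trichome fate, rose by 2.96. Regulators of leaf growth had 4 of 15 higher (26.7%) and 3 lower (20%), shares near or below those of all loci, and their summed TPM was 371.1 to 486.6 in SAM and 539.9 to 690 in IM. Without SAM replicate 1 none of them was lower, and without SAM replicate 2 or IM replicate 2 only 1 was. Among the vascular markers, the phloem sucrose transporter gene *SUC2* fell by 2.27 and the xylem protease gene *XCP1* by 3.16.

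**Figure D3:**
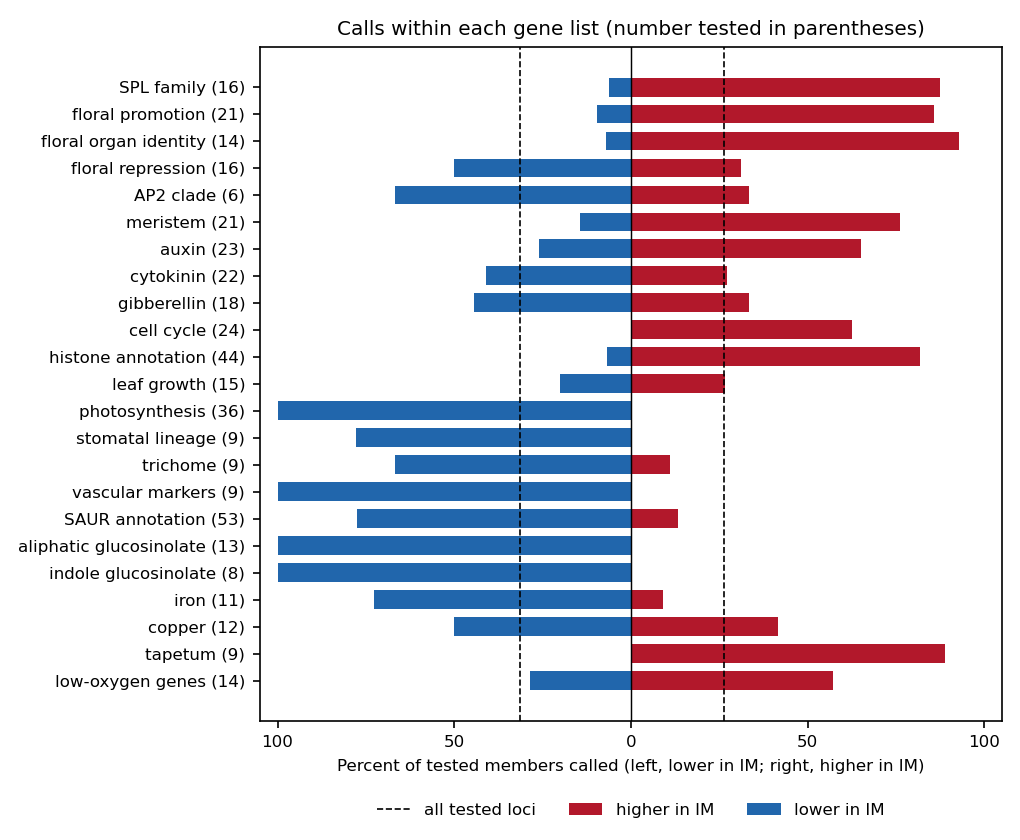
Percent of tested members called higher (red, to the right) or lower (blue, to the left) in the *plt3 plt7* IM for each gene list, with the number tested in parentheses. Dashed lines mark the shares over all tested loci, 26.4% and 31.3%. Photosynthesis, vascular and both glucosinolate synthesis lists reach 100% lower, and the *SPL* family 87.5% higher.

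Circadian clock genes, which set daily rhythms and feed into flowering time, were lower for 6 of 11 members (54.5%, against 31.3% of all loci) and higher for 2. Without IM harvest group 1, 4 were lower. The summed TPM of the list, on a scale apart from that of the calls, was 326.2 to 433.6 in SAM and 427.5 to 442.1 in IM. The pseudo-response regulator gene *PRR5* had 4457.2, 4582.4, 3669.6, 4213.7 and 4584.3 normalised counts in SAM and 1781.5, 1530.1, 2184.3, 1940.4 and 2259.5 in IM (−1.15, SE 0.11). *PRR7* and *PRR9* fell by 0.86 and 1.61, and 31.1% of the 31-base words of *PRR9* occur in other loci. The morning gene *LHY* rose by 1.44 and its relative *CCA1* fell by 0.55. The study's methods place the harvests in the same short window of the day, on separate days.

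Division genes were higher in the IM for 15 of 24 tested members and lower for none, by small amounts (median 0.46). The replication helicase gene *MCM4* rose by 0.84 (SE 0.05) and the mitotic cyclin gene *CYCB1;1* by 0.67 (SE 0.07). *CYCD3;3*, a G1 cyclin gene, changed most, with 1976.6, 1826.8, 2053.6, 1930.5 and 2052.8 normalised counts in SAM and 5617.6, 6196.7, 5137.0, 5370.3 and 5490.1 in IM (1.5, SE 0.06). Histone loci, taken by annotation, were higher for 36 of 44 (81.8%) and lower for 3 (6.82%). Histone TPM summed to 9268 to 11180 in SAM and 20820 to 24380 in IM. Families linked to cell expansion were not alike. Of 53 *SMALL AUXIN UPREGULATED RNA* (*SAUR*) loci, whose products promote cell elongation, 41 were lower (77.4%) and 7 higher (13.2%), with a median of −3.18. Expansin loci, which loosen cell walls, were divided, with 10 of 19 lower (52.6%) and 7 higher (36.8%). Over all tested loci 31.3% were lower and 26.4% higher. Expansin TPM, on a scale apart from that of the calls, summed to 471.6 to 616.1 in SAM and 827.2 to 952.3 in IM.

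Glucosinolate synthesis genes were lower in the IM. Aliphatic glucosinolates are sulfur-rich defence compounds made from methionine, and the 13 genes of their synthesis that passed the filter (14 listed) all fell, with a median of −8.31. The list was written after these values had been seen. Its summed TPM was 997.6 to 1673 in SAM and 39.09 to 42.49 in IM. *CYP79F1*, for the enzyme that commits amino acids to the pathway, had 11735.9, 11068.6, 13658.6, 15449.3 and 14077.8 normalised counts in SAM and 0, 0, 0, 0.9 and 0 in IM, a ratio of 9.56e+04 (95% counting interval 1.71e+04 to 3.77e+06). Chain elongation genes *BCAT4* and *MAM1* fell by 13.16 and 12.47. The regulators fell with them. *MYB28* had 3763.3, 3526.6, 3640.2, 4577.4 and 4157.1 in SAM and 124.3, 136.6, 97.8, 114.8 and 112.1 in IM (−5.10, SE 0.11), *MYB29* fell by 8.31, and *MYB76* had no IM count and was at least 561-fold lower. The 8 indole glucosinolate genes also fell, with a smaller median of −1.79. Of all tested loci 31.3% were lower.

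Of 9 genes linked to the breakdown of these compounds or to storage proteins, 6 rose (66.7%) and 1 fell (11.1%), against 26.4% and 31.3% over all loci. This list was also written after values were seen. The myrosinase gene *TGG1* was not called (−0.10), and *TGG2* rose by 1.3. The myrosinase-binding protein genes *MBP1* and *MBP2* rose by 5.72 and 6.78. *VSP1*, for a vegetative storage protein induced by jasmonate, had 153.6, 136.0, 163.5, 202.3 and 189.2 normalised counts in SAM and 146559.9, 141622.1, 142319.3, 124894.5 and 119740.9 in IM (9.64, SE 0.10). It was among the 5 nuclear genes of highest mean TPM in the IM. *PYK10*, for a beta-glucosidase of ER bodies in seedlings, went the other way, with 56117.9, 56459.0, 63376.6, 66932.4 and 62728.5 in SAM and 3.2, 0, 55.7, 81.3 and 3.0 in IM (−11.05, SE 1.08), and overlaps AT3G09250. Its 2 highest IM values were from replicates 3 and 4, which share a harvest group.

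In all, 34 loci had at least 100 normalised counts in every SAM library and none in any IM library, and 12 had the reverse pattern. Some of them share most or all of their 31-base words with other loci, so their zeros are uncertain. *CIB1*, counted only in SAM, and AT3G02010, AT3G53140 and AT5G58150, counted only in IM, share 100%. AT3G05727, annotated as an S locus-related glycoprotein binding protein, had 18419.0, 18520.8, 21096.5, 23573.2 and 30299.8 in SAM and 0 in all IM libraries, at least 5.52e+04-fold lower. On chromosome 4, 9 tested loci between AT4G22460 and AT4G22520 (11838960 to 11858970), mostly annotated as lipid-transfer proteins, all fell. Their summed TPM was 5893, 6134, 4743, 10200 and 10530 in SAM replicates 1 to 5 and at most 0.6482 in IM. SAM replicates 4 and 5 were highest. AT4G22485 alone had 37512.0 to 132957.0 normalised counts in SAM and 1 count in IM. It shares 91.3% of its 31-base words with other loci and overlaps AT4G22475, so the division of counts within this cluster is uncertain.

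Nitrate assimilation genes were lower in the IM, and superoxide dismutase genes moved in opposite directions. The nitrate reductase gene *NIA2* had 10539.4, 10683.7, 8823.4, 10560.2 and 10754.3 normalised counts in SAM and 190.2, 105.2, 126.7, 111.2 and 116.1 in IM (−6.31, SE 0.12). *NIA1* and the nitrite reductase gene *NIR1* fell by 4.36 and 3.91, so that all 3 nitrate assimilation genes fell. The wider nutrient list had 5 of 13 tested members (17 listed) higher and 5 lower (38.5% each), against 26.4% and 31.3% over all loci. The phosphate-status gene *SPX1* rose by 2.16. Superoxide dismutases exist in iron- and copper-dependent forms. *FSD1*, for the iron form, had 42028.1, 38296.2, 42093.1, 38811.9 and 36793.0 in SAM and 25.5, 8.2, 28.6, 9.9 and 121.1 in IM. DESeq2 gave it no adjusted p-value with its outlier filter on, and edgeR called it (−10.02). *CSD1*, for a copper/zinc form, had 1056.4, 1462.5, 1688.9, 966.6 and 1586.6 in SAM and 18805.2, 18209.1, 16630.0, 17245.2 and 17124.1 in IM (3.70, SE 0.13; it overlaps AT1G08840), and *CSD2* and its chaperone gene *CCS* rose by 2.40 and 1.22. The copper transporter gene *COPT2* had no IM count and was at least 204-fold lower. Of 12 copper genes 5 rose (41.7%) and 6 fell (50%). Of 11 tested iron genes (14 listed) 8 fell (72.7%) and 1 (9.09%), the transporter gene *YSL1*, rose by 1.05. *NAS1*, for a synthase of the metal chelator nicotianamine, had 2172.0, 2039.8, 2345.2, 2944.9 and 2483.6 in SAM and 0 in every IM library, at least 5.76e+03-fold lower. *VTL5*, of the vacuolar iron transporter family, was lower by a ratio of 1.45e+04 (95% counting interval 2.6e+03 to 5.72e+05). The copper and iron lists were written after values had been seen. Substrate and age changed with tissue, and their part was not tested.

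Genes of the tapetum, the anther layer that feeds developing pollen, differed within the IM group. Of 14 tapetum genes, a list written after values were seen, 9 passed the filter. Of these 8 were higher in IM (88.9%) and none lower, against 26.4% and 31.3% over all loci. Their median was 6.88 (6.73 at the lower bounds). Without IM harvest group 1, an alternative chosen after seeing the data, 8 of 9 were higher and 1 lower, with a median of 5.94. Without IM replicate 2 alone 5 were higher, and DESeq2 gave 3 others no adjusted p-value. The list's summed TPM was 14.7 to 17.57 in SAM and 185.6, 121.2, 38.45, 54.3 and 55.33 in IM replicates 1 to 5. *ABORTED MICROSPORES* (*AMS*), a tapetum regulator, had 1018.8, 673.5, 102.7, 172.6 and 119.1 normalised counts in IM. *ACOS5*, for a sporopollenin precursor enzyme, had 1006.0, 759.6, 177.7, 167.2 and 152.2. AT5G52160, annotated as a lipid-transfer protein, had 4140.9, 2607.9, 164.0, 418.5 and 376.4. In each of these genes replicates 1 and 2, the libraries of IM harvest group 1, lay above the other 3. *AMS* overlaps loci on the opposite strand. *MS1*, which acts late in the tapetum, had no count in any library. The early anther gene *EMS1*, by contrast, had 3750.0, 4071.1, 3752.9, 4105.0 and 4211.7 in IM, with replicates 1 and 2 in the range of the others. *AP3*, *PI* and *AG* varied by less than 1.5-fold within the IM group. Of 8 meiosis genes, a list also written after values were seen, 7 were higher (87.5%) and 1, *DMC1*, was lower by 0.50 (12.5%). Meiosis genes summed to 39.23 to 45.21 TPM in SAM and 45.03 to 56.76 TPM in IM.

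**Figure D4:**
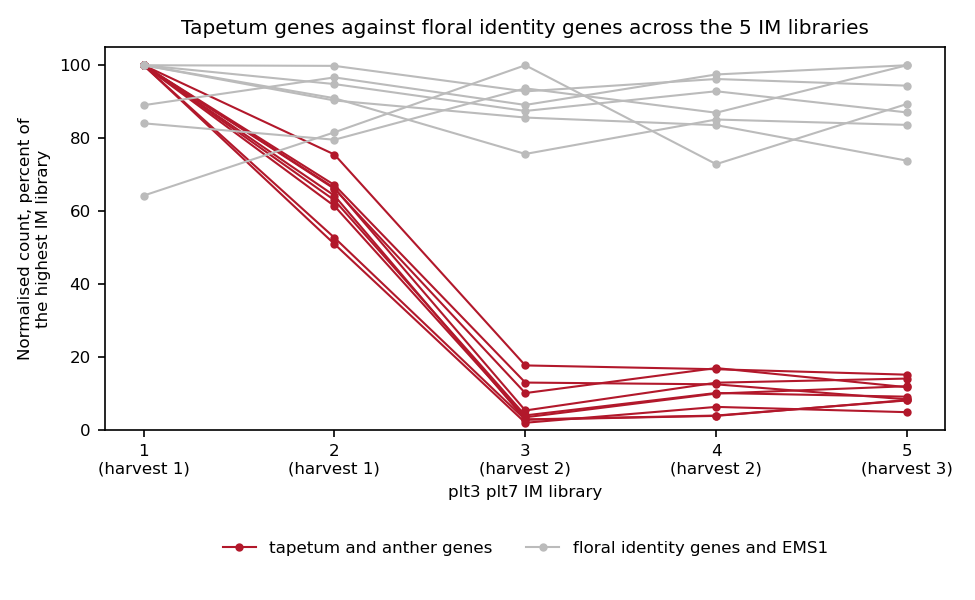
Normalised count in each *plt3 plt7* IM library as a percent of the highest of the 5 libraries. Red lines, labelled tapetum and anther genes, are 9 genes chosen with their values known (among them *AMS*, *ACOS5* and AT5G52160). Grey lines are *AP3*, *PI*, *AG*, *AP1*, *LFY*, *SEP3* and *EMS1*. Replicate number and harvest group are on the horizontal axis. The red genes are highest in replicates 1 and 2, and the grey genes have no common order. Of the red genes, AT3G52130 and AT5G44540 were named for their spread within a tissue. AT1G27710, also red, is annotated only as a glycine-rich protein. It shares 97.78% of its 31-base words with other loci and overlaps AT1G27720 on the opposite strand, so its counts are uncertain.

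Other called genes varied strongly within a tissue, by the SD of their log2 normalised counts. *NIT2*, for a nitrilase, had 2.1, 5.5, 214.5, 1315.9 and 2.0 in IM and 0, 10.3, 109.4, 13.7 and 17.2 in SAM (3.35). It was not called without SAM replicate 2, 4 or 5, or at an adjusted p under 0.05. *CHI*, annotated as a chitinase, had 18.1, 2.7, 142.1, 404.9 and 50.1 in IM. *WRKY28*, a stress-related transcription factor gene, had 0, 0, 20.1, 35.2 and 2.0 in IM and 97.6 to 156.6 in SAM. In these 3 genes IM replicates 3 and 4, from harvest group 2, were the highest. AT3G52130 and AT5G44540, annotated as a lipid-transfer and a tapetum-specific protein, were instead highest in replicates 1 and 2, at 993.3 and 638.0 and at 1034.7 and 527.3, against at most 80.1 in the other 3.

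The change from SAM to IM was compared with that in Col-0, to find where the mutant differed. Of the 11373 loci called in the mutant, 11287 (99.2%) had the same direction in Col-0. A genotype by tissue term, with harvest group nested in tissue as a covariate, was fitted to the 20 libraries and was called for 72 of 20348 loci (0.354%), 22 with a higher and 50 with a lower IM-to-SAM ratio in the mutant. Of the 70 that were also tested within the mutant, 28 were higher in its IM, 32 were lower and 10 were not called. None of the *SPL*, *AP2*-clade or floral organ genes described above was among them. edgeR called 11 loci, which were all among the 72. The count was 253 without SAM replicate 1, 132 without IM replicate 3 and 40 without SAM replicate 5, and 25 without IM harvest group 1 (an alternative chosen after seeing the data).

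*FTM1* (chromosome 1, 16577521 to 16579722), for a stearoyl-acyl-carrier-protein desaturase of the meristem at floral transition, differed most clearly. Normalised over all 20 libraries it had 89.6, 117.6, 184.1, 237.4 and 205.8 in mutant SAM and 600.5, 628.1, 1073.3, 1008.1 and 1244.4 in mutant IM. In Col-0 it had 25, 32.1, 43.6, 51.2 and 102.8 in SAM and 2531.6, 3179.8, 4597.4, 2645.3 and 2223.8 in IM. The change was 2.45 on the log2 scale in the mutant and 5.90 in Col-0 (difference −3.44, SE 0.37, DESeq2 adjusted p = 3.54e-16). Every mutant IM library lay below every Col-0 IM library. For AT4G33560 the change was 2.30 in the mutant and 4.64 in Col-0 (difference −2.43, DESeq2 adjusted p = 1.99e-09). For AT4G19200 the change was −1.12 in the mutant and 0.08 in Col-0 (difference −1.2, SE 0.15, DESeq2 adjusted p = 1.14e-11). *HXK3*, for a hexokinase, fell more in the mutant (difference −1.55, DESeq2 adjusted p = 7.14e-07).

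Several genes known from the response to low oxygen were among the calls, and a list of 14 was written after they had been noticed. In the mutant 8 of the 14 rose (57.1%) and 4 fell (28.6%), against 26.4% and 31.3% over all loci. The summed TPM of the list was 50.01 to 79.99 in SAM and 183.7 to 255.5 in IM. Compared with Col-0, 6 of the 14 were called and all 6 had a lower term in the mutant. The median difference was −0.83, and 12 of the 14 differences lay below 0. Because the list was chosen from these values, the counts are a description only, and edgeR called 2 of the 6 and the fit without IM harvest group 1 called 3. *PCO2*, for an oxygen-sensing cysteine oxidase, had changes of 2.28 in the mutant and 3.79 in Col-0 (difference −1.49, SE 0.25, DESeq2 adjusted p = 7.84e-06). *ADH1*, for alcohol dehydrogenase, had changes of 2.2 and 3.4 (difference −1.17) and overlaps AT1G77122. *HB1*, for a haemoglobin, had changes of −3.35 in the mutant and −1.32 in Col-0 (difference −2.14, SE 0.37, DESeq2 adjusted p = 1.65e-05). *PCO1*, *HRA1* and *LBD41* had differences of −0.92, −0.74 and −0.63.

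A few developmental genes differed too. *FLC* fell less in the mutant than in Col-0, with 69.13 ± 17.39 in mutant IM and 30.23 ± 8.6 in Col-0 IM against 347.56 ± 50.69 and 356.06 ± 49.54 in SAM (normalised over 20 libraries, SD, n = 5; difference 1.3, SE 0.23, DESeq2 adjusted p = 5.09e-05). *UFO* was lower in mutant than in Col-0 SAM, at 25.23 ± 7.04 against 65.64 ± 22.41, and had close means in IM, at 278.72 ± 85.09 against 294.68 ± 42.14 (difference 1.24). *GL1* fell more in the mutant (difference −1.1), and for *TGG1*, not called within the mutant, the difference was 0.57. edgeR called neither of these, nor *UFO*, *ADH1*, *PCO1*, *HRA1* or *LBD41*. *PLT3* and *PLT7* themselves had no called difference in their rise.

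**Figure D5:**
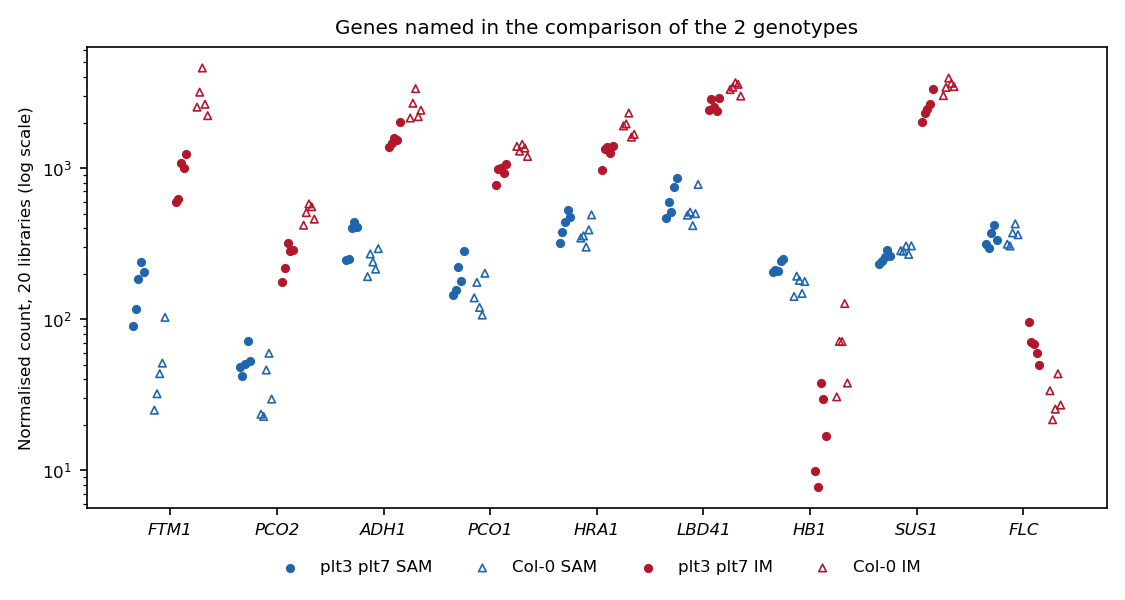
Counts normalised over all 20 libraries (log axis) of 9 genes named in the genotype comparison, in *plt3 plt7* (filled circles) and Col-0 (open triangles), with SAM in blue and IM in red and 1 point per library. *FTM1* in the mutant IM lies between 600.5 and 1244.4, below all Col-0 IM libraries, and its mean in the SAM is higher in the mutant than in Col-0.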

How the data were processed

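RNA of hand-dissected meristems was sequenced in 20 libraries, of which the 10 *plt3 plt7* libraries were compared here. Groups, replicate numbers and harvest groups came from the sample labels. The authors trimmed reads with fastp 0.23.4 and pseudoaligned them to TAIR10 transcripts with kallisto 0.46.1. The deposited values used are estimated counts per transcript, not normalised, and kallisto splits ambiguous reads among transcripts. TPM values (relative transcript abundance corrected for length and depth) were deposited by the authors in the same tables, with transcript and effective lengths. TPM was used for summed levels of gene lists, and effective lengths for 1 alternative.

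Estimated counts were summed to the locus and rounded to whole numbers. A locus was tested where 5 or more of the 10 libraries had 10 or more counts, with DESeq2 1.42.0 (Wald test, Benjamini-Hochberg adjustment, not shrunken) in R 4.3.3, on tissue alone, because harvest group is nested in tissue. The genotype by tissue term was fitted to the 20 libraries, with harvest group (nested in tissue) as a covariate. All single-gene p-values are from DESeq2 unless edgeR is named. Alternatives were edgeR 4.0.16, TMM factors in DESeq2, no or a stricter filter on low counts, an adjusted p under 0.05, Cook's filter off, a replicate block, harvest groups summed, an offset for transcript length, a joint fit of all libraries, no harvest term in the genotype fit, and each library left out in turn. Scripts were tested on simulated data. Gene positions, small RNAs and sites were read from the RefSeq copy of TAIR10.1. Sharing of sequence was measured in words of 31 bases. Fold changes against a tissue with no counts are lower bounds at 3 counts over its 5 libraries, and counting intervals are exact 95% intervals. The reads carried no molecular identifiers, so bounds and intervals cover counting error only. Work outside R used Python 3.11.15, pandas 2.3.3, scipy 1.17.1 and matplotlib 3.10.9.

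Genes were named if they belonged to 1 of the gene lists, had 1 of the 10 highest or 10 lowest log2 fold changes (calls with a mean of at least 100 normalised counts in the higher tissue and no overlap between tissues), 1 of the 5 smallest p-values in either direction, 1 of the 5 highest mean TPM values of a tissue, 1 of the 5 smallest adjusted p-values of the genotype term, or 1 of the 5 largest spreads within a tissue among calls in either direction. The lists and the comparison were chosen with earlier results of these data known. The *SPL*, *AP2*-clade, glucosinolate, iron, copper, tapetum, meiosis and low-oxygen lists, the histone, *SAUR* and other families taken by annotation, *FLC* and *TGG1* in the genotype comparison, and the loci between AT4G22460 and AT4G22520 were chosen after their values had been seen. A gene of the auxin list is not reported here.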

Additional observations from a re-analysis of the deposited data

Results flagged for a closer look

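Single libraries lay far from the other 4 of their group in 17 of 312 groups of 5 examined (Dixon's gap test), about the share that chance gives (1 in 20 groups). In the SAM these were *PIN7* in replicate 4 (5698.5 normalised counts, others 4257.6 to 4656.7), *SPL11* in replicate 2 (214.2, others 155.0 to 165.8), *NIA2* in replicate 3 (8823.4, others 10539.4 to 10754.3), *SEP4* in replicate 5 (60.6, others 43.6 to 48.2), *AGL13* in replicate 1 (10.8, others 25.9 to 30.1), *PIN2* in replicate 3 (217.6, others 112.1 to 131.2) and *NIT2* in replicate 3 (109.4, others 0 to 17.2). In the IM they were *CAL* in replicate 3 (799.9, others 672.4 to 691.8), *LHCB1.1* and *NIA2* in replicate 1 (4213.2 and 190.2, others at most 3379.8 and 126.7), *AUX1* in replicate 4 (1395.4, others 1607.3 to 1663.9), *NIT2* in replicate 4 (1315.9, others 2.0 to 214.5), *WOX5* in replicate 5 (22.0, others 40.4 to 46.4), and *FSD1* and *SEP1* in replicate 5 (121.1 and 3127.5, others at most 28.6 and 2784.3). The total of IM replicate 3 was 114.9 megacounts, against 24.8 to 36.9 in the other IM libraries. The mitochondrial share of SAM replicate 5 was 0.0076% of counts, against 0.0045 to 0.005% in the other SAM libraries. Except for *NIT2*, *AGL13* and *PIN2*, the tissues did not overlap in these genes.

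The change from SAM to IM differed between *plt3 plt7* and Col-0, by a test of the genotype by tissue term, in 14 of the genes named in the text. The mutant's log2 change was larger, or less negative, by 1.3 for *FLC*, 1.24 for *UFO* and 0.57 for *TGG1*. It was smaller, or more negative, for the other 11. The differences were −3.44 for *FTM1*, −2.43 for AT4G33560, −2.14 for *HB1*, −1.55 for *HXK3* and −1.49 for *PCO2*. They were −1.2 for AT4G19200, −1.17 for *ADH1*, −1.1 for *GL1*, −0.92 for *PCO1*, −0.74 for *HRA1* and −0.63 for *LBD41*.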

How the results depend on the processing

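No locus called in the mutant was called in the opposite direction under any of the alternatives run, and at least 10800 of the 11373 calls were kept. The counts of higher and lower loci stayed within 1.5 times their values, at 5146 to 5244 higher and 6099 to 6195 lower when each library was left out. With a minimum of 2-fold, these ranges were 1816 to 1872 and 3553 to 3629. Of 145 genes given by name in the text, 6 crossed the threshold in some setting. Members of the lists that are not given by name crossed it too. Leaf growth genes called lower, for example, numbered 0 to 4 across settings, against 3 in the main fit. *MUTE* was called without SAM replicate 4 (−0.42) and *SPL13A* without IM replicate 3 (0.67) or SAM replicate 2 (0.66). *CCA1* lost its call without IM harvest group 1 (−0.40), a setting chosen after seeing the data. *PIN2* was called higher in 4 settings (0.45 to 0.56), *FSD1* was called by edgeR and *NIT2* was lost at an adjusted p under 0.05.

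The count of 72 loci that differed between genotypes was the result that moved. It was 11 with edgeR, 40 to 253 when each mutant library was left out, and 25 without IM harvest group 1, a setting chosen after seeing the data, which kept 19 of the 72. *LBD41*, *HRA1*, *GL1*, *PCO1* and *TGG1* lost their call there and with edgeR, and *UFO* lost it without SAM replicate 4 (1.06). The cause was not tested.

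Replicate numbers recur in the labels, but same-numbered SAM and IM libraries did not deviate together (correlations −0.1 to 0.0228 across loci). The numbers were thus not taken to pair SAM with IM libraries. With a replicate block across tissues, 11237 loci were called in the mutant (98.0% of the calls kept), and *NIT2* lost its call (0.99). In the genotype fit the block joined same-numbered mutant and Col-0 libraries within a tissue, a pairing that was not examined. With it, 143 loci differed between genotypes (59 of the 72 kept).

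The libraries of 1 tissue shared age, substrate and light, and some shared a harvest group, so that the tissue difference cannot be told apart from these. Counts near the minimum of 10 limit what was detectable, as for *FT* and *CLV3*. Loci that overlap on opposite strands or share sequence remain uncertain in how their counts were divided.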

Other observations

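Gene families taken by their annotation, and not covered by the lists above, also changed in both directions. Of 144 tested cytochrome P450 loci, whose enzymes oxidise hormones and defence compounds, 70 were lower in the *plt3 plt7* IM (48.6%) and 38 higher (26.4%), against 31.3% and 26.4% of all tested loci. Glutathione transferases were lower for 25 of 43 loci (58.1%) and higher for 8 (18.6%), with a median log2 fold change of −0.67. Peroxidases were lower for 23 of 42 (54.8%) and higher for 13 (31%), with a median of −1.05. Pectin methylesterases, which modify cell walls, were lower for 22 of 49 (44.9%) and higher for 14 (28.6%). MADS-box loci, which include the floral organ genes, were higher for 28 of 42 (66.7%) and lower for 8 (19%), with a median of 1.46. Cytosolic ribosomal protein loci had 2 of 8 higher and 2 lower (25% each, near or below the shares of all loci), with a median of −0.01. WRKY loci, known from stress responses, had 15 of 36 higher (41.7%) and 13 lower (36.1%), with a median of 0.18. The families share members with other lists, were chosen with values known and were not tested as sets.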
